A study of Mus musculus with 4 samples.

Results

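The genes described here are 8 regulators of the actin cytoskeleton that fall into 4 pairs of paralogues: the MARCKS proteins Marcks and Marcksl1, the beta-thymosins Tmsb4x and Tmsb10, the profilins Pfn1 and Pfn2, and the cofilins Cfl1 and Cfl2. They are 8 of 18193 genes named on the array, and their 26 probe sets, of 45037 that are not controls, are those whose only gene symbol in the platform annotation is 1 of the 8; 25 of the 26 were bright enough to be tested. The group was chosen by the measured difference between the lines, because Marcks and Tmsb4x are among the genes with the largest deficit in L929, and the others joined as their paralogues or as partners at actin. The arrays, Affymetrix whole-genome mouse arrays, were hybridised with RNA of 2 established mouse fibroblast lines that had received no stimulus: L929, derived from adult connective tissue, on 2 arrays, and NIH3T3, derived from embryos, on 2 arrays. The submitters describe L929 as sensitive to necrosis and NIH3T3 as sensitive to apoptosis, and the comparison asks which transcripts set these lines apart before any death signal. Each way of dying is represented by 1 line, so what belongs to the line and what belongs to its way of dying cannot be told apart. The labels do not state that replicates were separate cultures, so p-values measure the spread between these arrays, which may be technical. In a bulk extract, fewer cells with a transcript and less of it per cell cannot be told apart.

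Actin exists in cells as single subunits and as filaments, and these proteins act at the turnover between them. Beta-thymosins bind single subunits and hold them back from assembly, profilins bring subunits to growing filament ends, and cofilins sever old filaments and release subunits. MARCKS proteins sit on the inner face of the plasma membrane, where they bind acidic phosphoinositides and link actin filaments, and protein kinase C or calcium-bound calmodulin takes them off the membrane. Fibroblasts use these proteins in spreading, ruffling and migration.

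Values are MAS5 signals (arbitrary units) after the 4 arrays had been brought to 1 trimmed mean, and a log2 difference is L929 minus NIH3T3 of log2(signal + 8.01), with its standard error (SE). Signals under 17.3, the 40th percentile of all scaled signals, are treated as dim, and where a line is dim on both arrays a fold is given as a lower bound against that level. Other folds come from the log2 difference, and those against weak signals depend on the offset. Before this step the L929 arrays had trimmed means of 142 and 135, and the NIH3T3 arrays of 135 and 210.3. Over the tested probe sets, which are not independent replicates, log2 signals correlated at 0.982 between the L929 arrays, at 0.981 between the NIH3T3 arrays and at 0.835 to 0.843 across lines. Of 10 fibroblast markers, 9 lay above the dim level on both arrays of each line, with summed signals of 40290.4 to 42172 in L929 and 31734 to 42003 in NIH3T3; Fap, a surface protease, was dim on all 4 arrays. Thy1 and Pdgfra were called lower, at 24.0 and 283 in L929 against 2223 and 1661 in NIH3T3, and Pdgfrb was called higher, at 1022 in L929 against 510.1 in NIH3T3. The 6 epithelial markers summed to 152 to 166 in L929 and 162 to 177 in NIH3T3, and the 5 measured leukocyte markers to 71.9 to 78.6 in L929 and 106 to 126 in NIH3T3. The leukocyte sum is lower in L929, as several members are. It is so through Cd68, called lower at 31.6 in L929 and 65.4 in NIH3T3, and Adgre1 at 28.3 and 40.8. Adgre1 was not called, and the lines overlapped on it. Cd3e and Itgam were dim on all arrays, and the part of the leukocyte sum in the results was not tested. The 4 endothelial markers summed to 47.5 to 70.7 in L929 and 45.7 to 66.0 in NIH3T3, and the 4 neuronal or glial markers to 94.4 on each L929 array and 91.3 to 94.4 in NIH3T3. Within that sum the neuronal tubulin Tubb3 was called lower, at 2.45 in L929 against 34.9 in NIH3T3. The glial Gfap was called higher, at 44.8 against 15.1. The neuronal Rbfox3, at 33.7 in L929 against 32.5 in NIH3T3, was not called, and Map2 was too dim to be tested. Tubb3 thus moves with Pfn2 and Wasf1, genes prominent in neurons, while Rbfox3 does not. The part of Tubb3 in those results was not tested. The defining markers Ptprc of leukocytes and Pecam1 of endothelium were dim on all 4 arrays.

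In each of 3 pairs, 1 paralogue had similar signals in both lines and the other was lower in L929. Tmsb4x, Pfn2 and Cfl2 were lower, while the bright probe sets of Tmsb10, Pfn1 and Cfl1 differed little. In the fourth pair both paralogues, Marcks and Marcksl1, were lower in L929. Calls require a fold above 1.5 and an adjusted p (limma, Benjamini-Hochberg over all 27438 tested probe sets) below 0.05. Of the 25 tested member probe sets, 19 were called lower and 0 higher in L929, where 16.7% of all tested probe sets were called lower and 14.9% higher. Since the group was selected on this contrast, these calls describe the members and carry no weight as a test. In all, 11 member probe sets, from 4 genes, were more than 16-fold lower in L929, as were 272 of all tested probe sets (0.991%). In 21 of the 26 member probe sets both L929 arrays lay below both NIH3T3 arrays, which held for 28.4% of all probe sets; groups that do not overlap in either direction made up 55.7%. Without scaling the called probe sets split differently, with 28.5% higher in L929 in place of 47.2%.

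**Figure D1:**
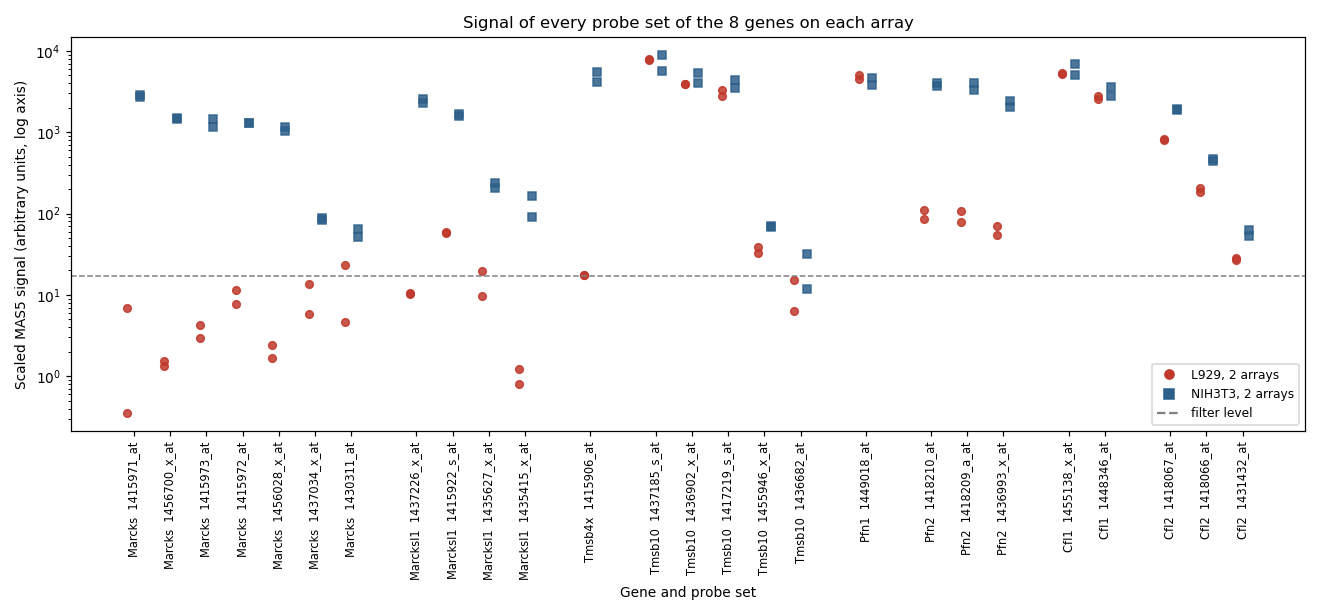
Scaled MAS5 signal (arbitrary units, log axis) of each of the 26 probe sets of the 8 genes, with 1 point per array, L929 left of NIH3T3, and a dashed line at the dim level. In L929 Tmsb4x and Marcks lie close to that line or under it, and the 2 genes reach up to 5515 in NIH3T3, while the bright Tmsb10, Pfn1 and Cfl1 probe sets have similar signals in both lines.

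Marcks, the myristoylated alanine-rich substrate of protein kinase C that gives the family its name, was dim in L929 and bright in NIH3T3. Its brightest probe set, 1415971_at, read 6.81 and 0.353 in L929, against 2886 and 2703 in NIH3T3. The lines did not overlap, and the deficit in L929 was at least 162-fold. The probe sets 1456700_x_at, 1415973_at, 1415972_at and 1456028_x_at had L929 means of 1.44, 3.60, 9.67 and 2.07 and NIH3T3 means of 1476, 1312, 1299 and 1096. All 4 were dim on both L929 arrays, and their deficits in L929 were 63.4-fold or more. The remaining 2 Marcks probe sets were weak in NIH3T3 as well. Probe set 1437034_x_at read 5.86 and 13.7 in L929, against 82.8 and 89.0 in NIH3T3, and 1430311_at read 4.61 and 23.1 in L929, against 65.0 and 51.4 in NIH3T3. Over the 7 probe sets the log2 difference ran from -7.97 ± 0.24 to -1.73 ± 0.42 (SE), so the size depends on the probe set and the direction does not. The call of 1430311_at was lost without NIH3T3 replicate 1, where its log2 difference was -1.58, and the difference was -1.08 without L929 replicate 1 and -2.38 without L929 replicate 2.

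Marcksl1, a shorter MARCKS relative with the same kind of phosphoinositide-binding and actin-binding segment, followed the same direction. Probe set 1437226_x_at read 10.7 and 10.3 in L929, against 2553 and 2285 in NIH3T3. Both L929 arrays were dim, and the deficit there was at least 140.0-fold. Probe set 1415922_s_at kept a measurable signal in L929: it read 57.7 and 60.1 in L929, against 1667 and 1581 in NIH3T3, a 24.4-fold difference. The weaker probe sets 1435627_x_at and 1435415_x_at averaged 14.6 and 1.02 in L929 and 221 and 129 in NIH3T3. The groups did not overlap in any of the 4 probe sets, and the log2 differences ran from -7.03 ± 0.13 to -3.37 ± 0.27 (SE). Probe sets named _x_at or _s_at, which are 3 and 1 of these 4, contain probes that can also bind other transcripts; 13 of the 26 member probe sets, among them 4 of the 5 for Tmsb10, are of these kinds. The promoter of Marcksl1, 250 bases before to 50 bases after its RefSeq start in GRCm38.p6 (chr4:129513331-129513630, plus strand), is shown because this gene is low in L929 together with Tmsb4x and Pfn2, whose promoters follow. Capitals mark matches to the searched motifs, here a CCAAT box and GC boxes.
Marcksl1: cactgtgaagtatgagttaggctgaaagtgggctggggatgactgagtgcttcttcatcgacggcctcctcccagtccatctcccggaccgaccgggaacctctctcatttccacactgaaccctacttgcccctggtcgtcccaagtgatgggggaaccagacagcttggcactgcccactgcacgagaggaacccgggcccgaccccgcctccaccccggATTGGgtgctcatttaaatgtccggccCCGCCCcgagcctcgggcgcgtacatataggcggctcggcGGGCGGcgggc

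Tmsb4x, an X-linked gene that encodes the subunit-sequestering thymosin beta-4, is represented by the single probe set 1415906_at. It read 17.5 and 17.7 in L929, against 5515 and 4121 in NIH3T3. The L929 signals lay just above the dim level, and the log2 difference was -7.54 ± 0.15 (SE). So close to that level the size depends on the offset, and over all alternatives the log2 difference ran from -8.00 with an offset of 1 to -6.60 with an offset of 32. With 1 probe set, no second set of probes bears on this value. Its autosomal paralogue Tmsb10, which encodes thymosin beta-10 with the same sequestering role, was among the bright transcripts of both lines. Probe set 1437185_s_at read 7738 and 7939 in L929, against 8885 and 5669.8 in NIH3T3, and the lines overlapped. Probe sets 1436902_x_at and 1417219_s_at read 3906 and 3876 in L929, against 5317 and 3999.8 in NIH3T3, and 3285 and 2784 in L929, against 4384 and 3522 in NIH3T3. In these the lines did not overlap, but the log2 differences of -0.24 ± 0.18 and -0.38 ± 0.17 (SE) were not called; 1417219_s_at was called without scaling, at -0.66. The weak probe set 1455946_x_at read 38.3 and 32.5 in L929, against 68.0 and 70.9 in NIH3T3 and was called lower, a call that was lost without scaling and when L929 replicate 2, NIH3T3 replicate 1 or NIH3T3 replicate 2 was left out. The fifth, 1436682_at, read 15.4 and 6.26 in L929 and was above the dim level only on replicate 2 of NIH3T3, so it was not tested. Bright signals carry a particular limit: among the 635 probe sets with a mean above 3000, NIH3T3 replicate 2 had a median of 0.762 times the scaled signal of replicate 1, and the sign of 1437185_s_at changed between alternatives, from -0.18 to 0.47. The RefSeq promoters (GRCm38.p6) of this pair are shown because the paralogues part most widely between the lines; they are chrX:167209169-167209468, minus strand, for Tmsb4x and chr6:72958434-72958733, minus strand, for the second of 3 listed Tmsb10 starts, with GC boxes in capitals.
Tmsb4x: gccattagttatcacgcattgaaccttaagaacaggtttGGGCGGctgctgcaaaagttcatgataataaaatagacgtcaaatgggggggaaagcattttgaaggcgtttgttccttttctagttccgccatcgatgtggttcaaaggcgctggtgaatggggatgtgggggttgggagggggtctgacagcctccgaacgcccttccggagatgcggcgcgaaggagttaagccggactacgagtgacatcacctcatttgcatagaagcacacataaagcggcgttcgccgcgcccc
Tmsb10: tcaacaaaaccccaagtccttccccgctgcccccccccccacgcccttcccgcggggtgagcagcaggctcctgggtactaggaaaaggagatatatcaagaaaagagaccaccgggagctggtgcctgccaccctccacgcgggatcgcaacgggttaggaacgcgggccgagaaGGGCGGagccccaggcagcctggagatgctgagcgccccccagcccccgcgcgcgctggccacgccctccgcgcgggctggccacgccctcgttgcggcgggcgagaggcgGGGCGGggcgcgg

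The profilins separated in the same way. Pfn1, the profilin found in nearly all cells, read 4559.6 and 5119 in L929, against 4594 and 3828 in NIH3T3 on its only probe set, 1449018_at. The lines overlapped, the log2 difference was 0.20 ± 0.17 (SE), and its sign was not settled, since without scaling it was -0.08. Pfn2, known best as the profilin of neurons, was bright in NIH3T3 and weak in L929 on all 3 of its probe sets. Probe set 1418210_at read 86.7 and 112 in L929, against 4025 and 3699 in NIH3T3. Probe set 1418209_a_at read 109 and 78.5 in L929, against 4038 and 3329 in NIH3T3. Probe set 1436993_x_at read 54.7 and 70.2 in L929, against 2072 and 2392 in NIH3T3. The lines were far apart on each, and the 3 probe sets gave close values of 36.3-fold, 36.6-fold and 31.9-fold lower in L929. Unlike Marcks, Pfn2 stayed above the dim level on both L929 arrays in all of its probe sets. The RefSeq promoters (GRCm38.p6) of the pair, chr3:57847708-57848007, minus strand, for Pfn2 and chr11:70654601-70654900, minus strand, for Pfn1, are shown for the same reason as those of the thymosins, with GC boxes in capitals.
Pfn2: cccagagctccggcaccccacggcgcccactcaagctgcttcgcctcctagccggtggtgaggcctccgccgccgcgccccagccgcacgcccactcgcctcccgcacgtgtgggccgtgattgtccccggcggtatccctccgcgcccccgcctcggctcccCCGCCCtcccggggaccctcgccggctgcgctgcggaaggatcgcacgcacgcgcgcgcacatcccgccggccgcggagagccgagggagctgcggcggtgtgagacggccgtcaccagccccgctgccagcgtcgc
Pfn1: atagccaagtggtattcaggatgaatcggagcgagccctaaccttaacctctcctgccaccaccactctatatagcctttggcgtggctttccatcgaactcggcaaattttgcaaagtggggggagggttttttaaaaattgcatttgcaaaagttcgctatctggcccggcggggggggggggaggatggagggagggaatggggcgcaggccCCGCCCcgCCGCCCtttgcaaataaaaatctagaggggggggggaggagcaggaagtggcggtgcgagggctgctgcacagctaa

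The cofilins differed least. Cfl1, the cofilin of non-muscle cells, read 5399 and 5253 in L929, against 6872 and 4990.0 in NIH3T3 on probe set 1455138_x_at, and 2559.8 and 2794 in L929, against 3599.8 and 2783 in NIH3T3 on probe set 1448346_at. The lines overlapped on both, and the log2 differences were -0.14 ± 0.20 and -0.24 ± 0.16 (SE). Without scaling these were -0.42 and -0.53, still not called. Over all alternatives the difference of 1455138_x_at ran from -0.42 to 0.09, so its sign was not settled. Cfl2, the cofilin that prevails in muscle, read 794 and 825 in L929, against 1941 and 1887 in NIH3T3 on probe set 1418067_at. Probe set 1418066_at read 186 and 205 in L929, against 442 and 463 in NIH3T3, and the dimmer 1431432_at read 27.1 and 28.6 in L929, against 53.0 and 63.1 in NIH3T3. The lines did not overlap on any of the 3, which gave 2.35-fold, 2.26-fold and 1.84-fold lower signals in L929. The call of 1431432_at was lost with no filter and on leaving out each array in turn. In the order of their chosen probe sets, the log2 differences ran from Marcks at -7.97 through Tmsb4x at -7.54, Marcksl1 at -7.03, Pfn2 at -5.18, Cfl2 at -1.23 and Cfl1 at -0.14 to Tmsb10 at 0.14 and Pfn1 at 0.20. Cfl1 and Tmsb10, and Tmsb10 and Pfn1, differ by less than the sum of their standard errors, and the order of Marcks, Tmsb4x and Marcksl1 depends on the probe set taken and on the offset; 2 of the 3 are dim in L929.

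**Figure D2:**
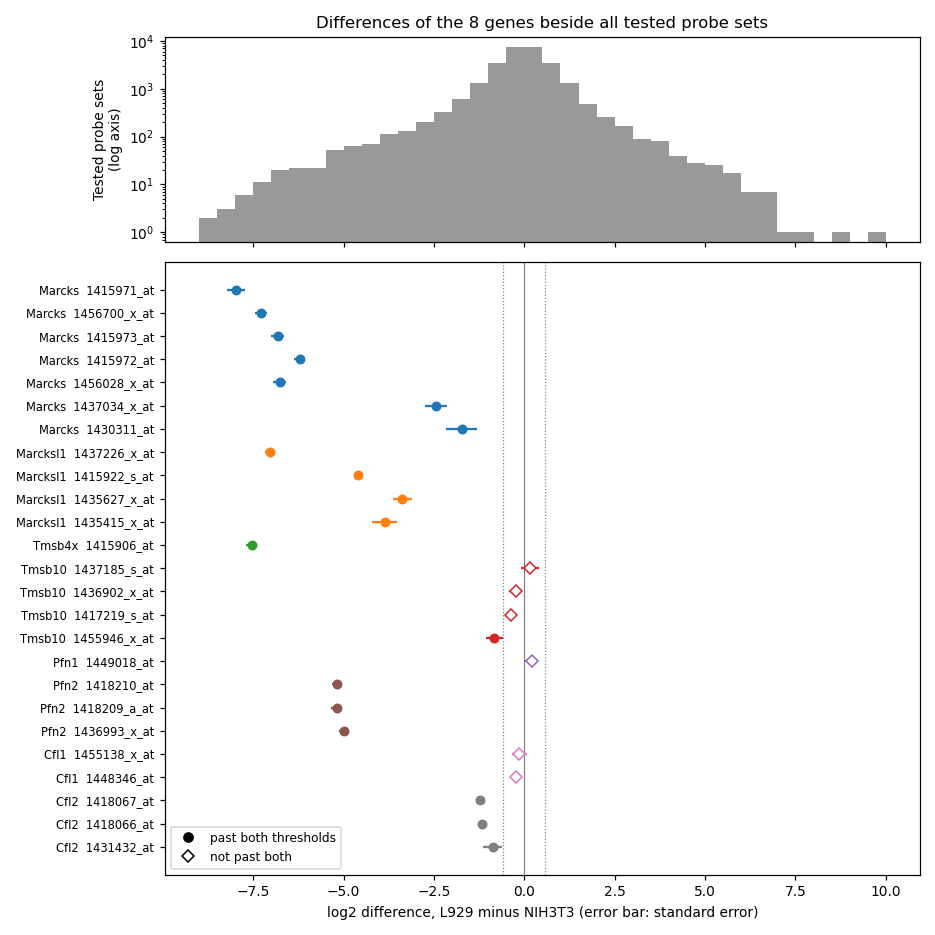
Log2 difference, L929 minus NIH3T3, of the 25 tested member probe sets with standard errors (lower panel, filled where called, with dotted lines at a fold of 1.5) under the distribution of all tested probe sets (upper panel, log axis). The 19 filled points, among them the weak Tmsb10 probe set 1455946_x_at at -0.84, all lie left of zero. Pfn1, Cfl1 and the other tested Tmsb10 probe sets gather around it.

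Signals of different probe sets are not comparable, because probes bind with different strength. Paralogues were therefore compared within each line through their log2 ratio on each array. That strength cancels between lines only where signals lie far above the offset and rise in proportion to the transcript. In L929 Tmsb4x, Marcks and Marcksl1 read close to the dim level or under it, so for them it does not cancel fully. Tmsb10, Pfn1 and Cfl1 lie in the bright range where the NIH3T3 arrays part after scaling. Pfn1 over Pfn2 was 5.59 and 5.42 on the L929 arrays, against 0.19 and 0.05 on the NIH3T3 arrays. The ratio was thus far higher in L929, by 5.38 on the log2 scale, against a pooled SD of 0.11 between replicates. Tmsb4x over Tmsb10 was -8.25 and -8.27 on the L929 arrays, against -0.69 and -0.46 on the NIH3T3 arrays, a difference of -7.69. The size of that difference depends on the offset, because Tmsb4x lies just above the dim level in L929. Cfl1 over Cfl2 was 2.75 and 2.66 on the L929 arrays, against 1.82 and 1.40 on the NIH3T3 arrays, a difference of 1.10 that exceeds the replicate spread, which was widest in NIH3T3. In these 3 pairs the lines did not overlap, and the ratio was shifted toward Tmsb10, Pfn1 or Cfl1 in L929. Marcks over Marcksl1 was -0.33 and -1.13 on the L929 arrays, against 0.18 and 0.24 on the NIH3T3 arrays. In L929 both genes are dim on these probe sets, so that ratio has no settled value there, and its difference of -0.94 moved to -2.03 with an offset of 1 and to -0.47 with an offset of 32. A ratio within an array shows unequal change and does not show that either gene was constant.

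**Figure D3:**
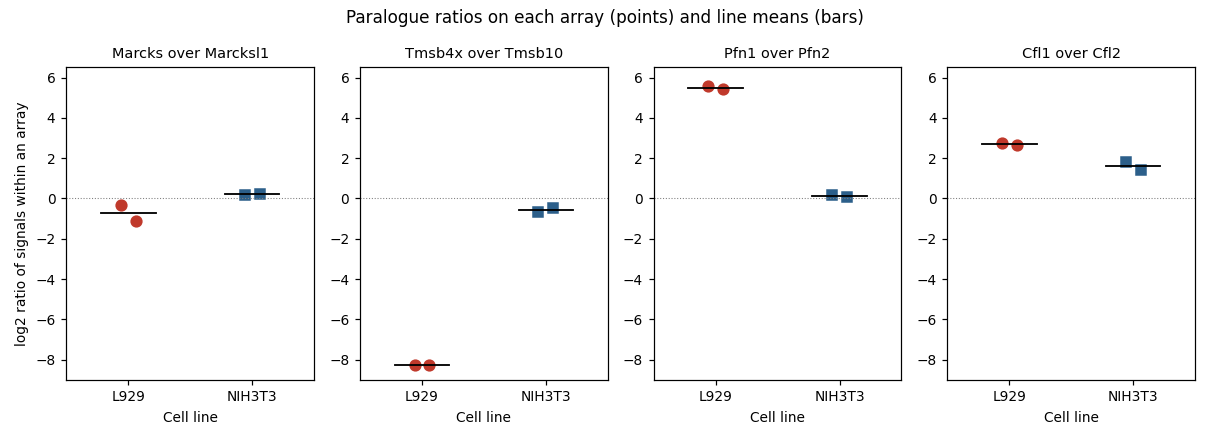
Log2 ratio of the signals of 2 paralogues within each array for the 4 pairs, with 1 point per array, L929 left of NIH3T3, and a bar at each line's mean. The thymosin ratio is near -8.26 in L929 and -0.57 in NIH3T3, and the profilin ratio lies above 5.38 in L929 and near 0.12 in NIH3T3.

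The promoters of these genes were rich in GC boxes and CpG dinucleotides. RefSeq promoters were found for 7 of the 8 genes, in 9 windows of 300 bases, since Tmsb10 has 3 overlapping windows. All 9 held a GC box (GGGCGG on either strand), which 35.7% of all 32851 promoter windows hold, and 3 held a CCAAT box (CCAAT on either strand), against 37.4% of all. None of the 9 held a TATA box (TATAAA), an AP-1 site (TGANTCA) or a CArG box, the motif bound by serum response factor, which 13.6%, 7.81% and 1.63% of all windows hold on either strand; GC boxes can overlap each other, as they do upstream of Cfl2. By the number of CpG dinucleotides over that expected from base composition, Marcksl1 stood at percentile 73.2 of all windows, Tmsb4x at 93.4, Pfn2 at 95.5 and Cfl2 at 88.9, the genes lower in L929. Pfn1 stood at percentile 64.2, Cfl1 at 94.2 and the 3 Tmsb10 windows at 66.8 to 86.4. All 9 lay above the median window, and the ranges of the lower and the similar genes overlapped. A motif match is a match of letters in this window and says nothing of binding.

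The genes around these regulators differed in both directions. Over 8 lists of actin pathway genes, of which 76 genes were tested with 1 probe set each, 18 were called higher and 20 lower in L929. Among all 12676 tested genes 35.2% were called, 17.4% higher and 17.8% lower. The median log2 difference was -0.15 over the lists and 0.01 over all genes. Without scaling 8 of the list genes were called higher, and the lower calls changed too, some being lost and some gained. The p-values below are limma's, adjusted over all tested genes, with n = 2 arrays per line.

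Profilin partners, the formins and Ena/VASP proteins that feed profilin-bound subunits to growing filaments, were lower more often than higher in L929: of 13 tested, 7 were called lower and 1 higher, with a median log2 difference of -0.69. Enah, the Ena/VASP protein Mena, measured 1.96 ± 1.94 in L929 and 925 ± 117 in NIH3T3 (SD), a deficit of at least 53.4-fold (adjusted p = 1.7e-07), and its 4 tested probe sets ran from -6.56 to -2.12. Evl, a second member of that family, measured 5.65 ± 2.95 in L929 and 601 ± 94.0 in NIH3T3, a deficit of at least 34.6-fold (adjusted p = 5.8e-07), although another of its probe sets differed by only -0.40. The third member, Vasp, measured 769.5 ± 10.7 in L929 and 749 ± 20.2 in NIH3T3 and was not called (adjusted p = 0.78). Of the 3 Ena/VASP genes, 2 were thus called lower and 1 was not called. Diaph2, a formin, was called lower at -3.03 on the log2 scale (adjusted p = 1.1e-05) with 1 of 2 L929 arrays dim, and the difference was -3.46 with an offset of 1 and -2.22 with an offset of 32, while its relative Diaph1 was not called at 0.22. The formin Fhod1 was 2.32-fold higher (adjusted p = 0.00051). Without scaling this call was lost, as were the lower calls of the formins Diaph3 and Fmnl2.

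Of 17 tested MARCKS regulators and relatives, 5 were called higher and 3 lower, but without scaling 2 and 1 were. The higher count was 3 with the mean of a gene's probe sets, and the lower count was 1 with scaling to a common median. Basp1, a membrane protein that binds phosphoinositides much as MARCKS does, measured 16.3 ± 4.98 in L929 and 2854 ± 346 in NIH3T3 (SD), and was called lower at -6.89 on the log2 scale (adjusted p = 3.8e-08). Of its 2 L929 arrays 1 was dim, and the difference was -7.39 with an offset of 1 and -5.90 with an offset of 32. Gap43, the third protein of that kind, was not called, at -0.80 (adjusted p = 0.17), but was called lower without L929 replicate 1. Among the protein kinase C genes, whose products phosphorylate MARCKS, Prkcb measured 572 ± 12.6 in L929 and 16.3 ± 3.81 in NIH3T3, and was called higher at 4.59 on the log2 scale (adjusted p = 4.2e-07). Of its 2 NIH3T3 arrays 1 was dim, and the difference was 5.07 with an offset of 1 and 3.65 with an offset of 32. Prkch, a further kinase of that family, was at least 4.62-fold higher (adjusted p = 0.00025). Prkca, measured at 349.6 in L929 and 420.5 in NIH3T3, was not called (adjusted p = 0.087). Pip5k1c, which makes the phosphoinositide that MARCKS binds, was 2.02-fold higher, and Pip5k1a, a kinase of the same activity, was 1.53-fold lower. Both calls were lost without scaling. The call of Pip5k1a was also lost with quantile normalization, with scaling to a common median, with an offset of 32 and with the mean of its probe sets. The adducin Add1, which carries a MARCKS-related segment, was 1.54-fold lower (adjusted p = 0.0013), a call lost without scaling and without NIH3T3 replicate 2.

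Of 12 tested kinases and phosphatases of cofilin, 5 were called higher and 4 lower. Of the cofilin phosphatases, Ssh3, a slingshot phosphatase, was at least 4.46-fold higher (adjusted p = 5.3e-05). Pdxp, the phosphatase chronophin, measured 278 ± 36.1 in L929 and 42.2 ± 24.8 in NIH3T3 (SD), 6.04-fold higher (adjusted p = 0.00023). Ssh2, a further slingshot phosphatase, was 1.52-fold higher (adjusted p = 0.011), a call lost without scaling, with an offset of 32 and without L929 replicate 2. Ssh1, in contrast, was 1.80-fold lower (adjusted p = 0.00065). Limk1, which phosphorylates and inactivates cofilin, was 1.81-fold higher (adjusted p = 0.00034). The call of Limk1 and that of Ssh1 were lost without scaling and with the mean of a gene's probe sets. The probe sets of Limk1 ran from 0.28 to 0.85 and those of Ssh1 from -0.85 to 0.12. Pak3, a p21-activated kinase, was at least 13.6-fold lower (adjusted p = 5.9e-06), the kinase Tesk2 3.72-fold lower (adjusted p = 8e-05) and Rock1, a kinase upstream of Limk1, 1.96-fold lower (adjusted p = 0.00014). The higher count was 3 without L929 replicate 2 and 2 without scaling.

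Of 14 tested genes of subunit binding and filament turnover, 5 were called higher and 2 lower; the counts were 3 and 1 without scaling, the higher count was 3 with the mean of a gene's probe sets, and the lower count was 1 with scaling to a common median. Coro1a, the coronin of leukocytes, was called higher at 3.32 on the log2 scale (adjusted p = 5.4e-05) with 1 of 2 NIH3T3 arrays dim, and the difference was 3.94 with an offset of 1 and 2.34 with an offset of 32. Mtss1, a membrane-bending protein that binds actin, was at least 1.76-fold higher (adjusted p = 0.0011), and Capzb, a subunit of the filament-capping protein, was 2.81-fold higher (adjusted p = 1.1e-05). The subunit-binding protein Cap1 was 1.74-fold lower (adjusted p = 0.0044), a call lost without L929 replicate 2 or NIH3T3 replicate 1. The coronin Coro1b was 1.56-fold lower (adjusted p = 0.0022). Its call was lost without L929 replicate 1, without NIH3T3 replicate 1, without scaling and with scaling to a common median. Without NIH3T3 replicate 1 neither this call nor that of Cap1 held. Of 10 tested genes of the Arp2/3 branching complex and its WASP activators, 1 was called higher and 2 lower. The higher one, the complex subunit Arpc5l, was 1.58-fold higher (adjusted p = 0.0014), a call lost without scaling and with the mean of its 3 probe sets, which ran from -0.33 to 0.66. Wasf1, an activator of the complex best known in neurons, was 11.8-fold lower (adjusted p = 3.4e-06), while its relative Wasf2 was not called at 0.25. The second lower call, Wasl at -1.08, was lost on leaving out L929 replicate 2 or either NIH3T3 array, with no trend and with the mean of its probe sets, which leaves 1. Its log2 difference was -0.49 without L929 replicate 2 and -1.67 without L929 replicate 1, and without scaling the lower count of the list was 3. Of the closest relatives of the 8 genes, the cofilin-like factor Dstn measured 2271 ± 55.5 in L929 and 2917 ± 193 in NIH3T3 and was not called (adjusted p = 0.055), and Tmsb15a, Pfn3 and Pfn4 were too dim to be tested.

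Actin itself was bright in both lines. Actb, cytoplasmic beta-actin, measured 9789 ± 445 in L929 and 8184 ± 3057 in NIH3T3 (SD, adjusted p = 0.41) and Actg1, cytoplasmic gamma-actin, 6612 ± 114 in L929 and 9474 ± 2869.7 in NIH3T3 (adjusted p = 0.15); neither was called, but both lie in the range where the NIH3T3 arrays part after scaling, and Actb was called higher without NIH3T3 replicate 1 and Actg1 lower without NIH3T3 replicate 2, without scaling and with quantile normalization. Of the 4 muscle actins, Acta2 of smooth muscle measured 52.3 ± 28.6 in L929 and 3440.3 ± 295 in NIH3T3 (adjusted p = 9.5e-07), a 60.6-fold deficit in L929, and Acta1 of skeletal muscle was 2.76-fold higher (adjusted p = 0.0001). Actg2 was 2.29-fold lower (adjusted p = 0.0091), a call lost without NIH3T3 replicate 1, and Actc1 was not called. Without NIH3T3 replicate 1 the actins thus counted 2 higher and 1 lower in place of 1 and 2. Without scaling, with quantile normalization or without NIH3T3 replicate 2, 3 actins were called lower. Srf, the factor that binds the CArG box, and its coactivators Mrtfa and Mrtfb, which respond to the pool of free actin subunits, were not called, at 0.21, -0.34 and -0.45 (adjusted p = 0.18, adjusted p = 0.076 and adjusted p = 0.012), the last of these differing by less than the fold of 1.5.

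**Figure D4:**
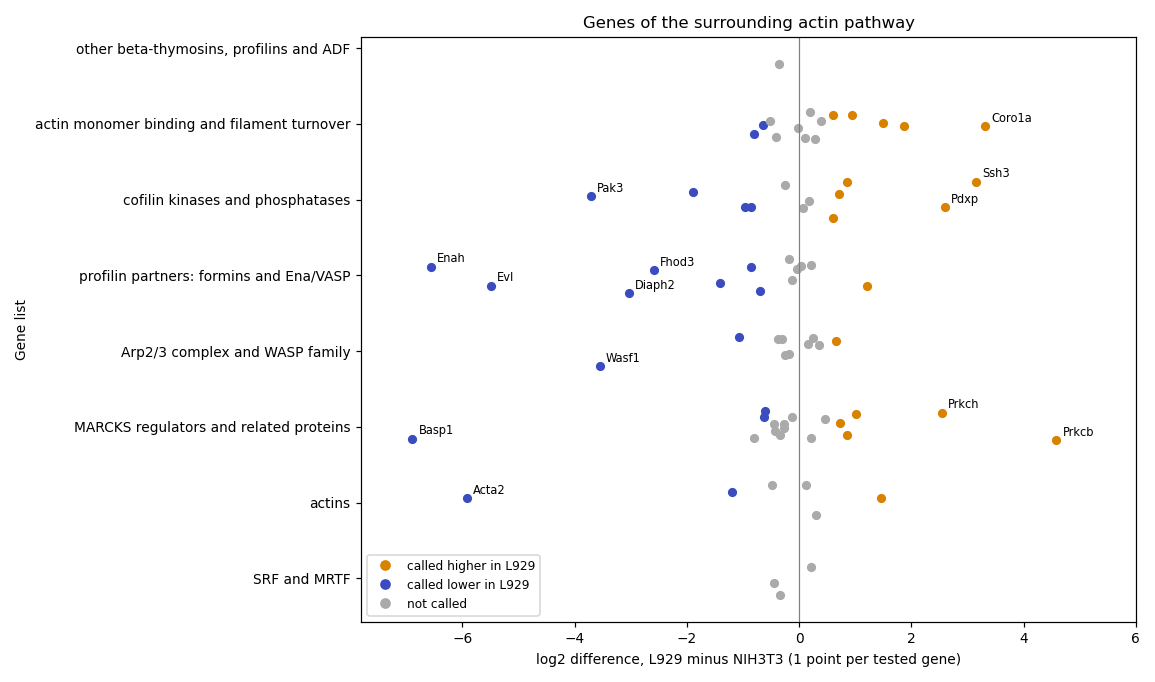
Log2 difference, L929 minus NIH3T3, of the tested genes of 8 actin pathway lists, with 1 point per gene, coloured by call and spread vertically only for legibility. Basp1, Enah, Acta2 and Evl lie farthest to the left, and Prkcb farthest to the right.

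Most genes next to the members were not called. For each member the 3 nearest tested protein-coding genes on either side were taken by their order in the GRCm38.p6 gene table, a rule chosen with the members' values known. Of these 48 neighbours, 7 were called higher and 11 lower in L929, where 17.4% and 17.8% of all tested genes were; without scaling the counts were 3 and 8, and over all other alternatives they ran from 7 to 10 higher and from 7 to 13 lower. Marcks on chromosome 10 lies beside Hdac2, and Marcksl1 on chromosome 4 beside Hdac1, genes of 2 related histone deacetylases, which differed by -0.38 and -0.40 on the log2 scale and were not called. On the other side of Marcks, the laminin gene Lama4 differed by -3.98 and was called lower (limma adjusted p = 8.1e-06). Fam167b, the second gene from Marcksl1, differed by 4.30 in the opposite direction (limma adjusted p = 5.9e-06). Beside Tmsb4x on chromosome X, Tceanc differed by -0.39 and Prps2 by -0.93, of which the second was called lower (limma adjusted p = 0.00074). Of the 6 neighbours of Tmsb4x, 1 was called higher and 3 lower. Trappc2 was higher at 1.29, and Rab9 at -0.59 and Arhgap6 at -1.80, dim on both L929 arrays, were lower. The call of Rab9 held in 10 of 15 alternatives. Around Pfn1 on chromosome 11, 1 of 6 was called higher, Eno3 at 2.73, and 3 lower. The 6 neighbours of Pfn2 on chromosome 3 lay between -0.32 and 0.63, and the 6 of Cfl2 on chromosome 12 between -0.06 and 0.64. Both genes stood below every one of these neighbours.

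**Figure D5:**
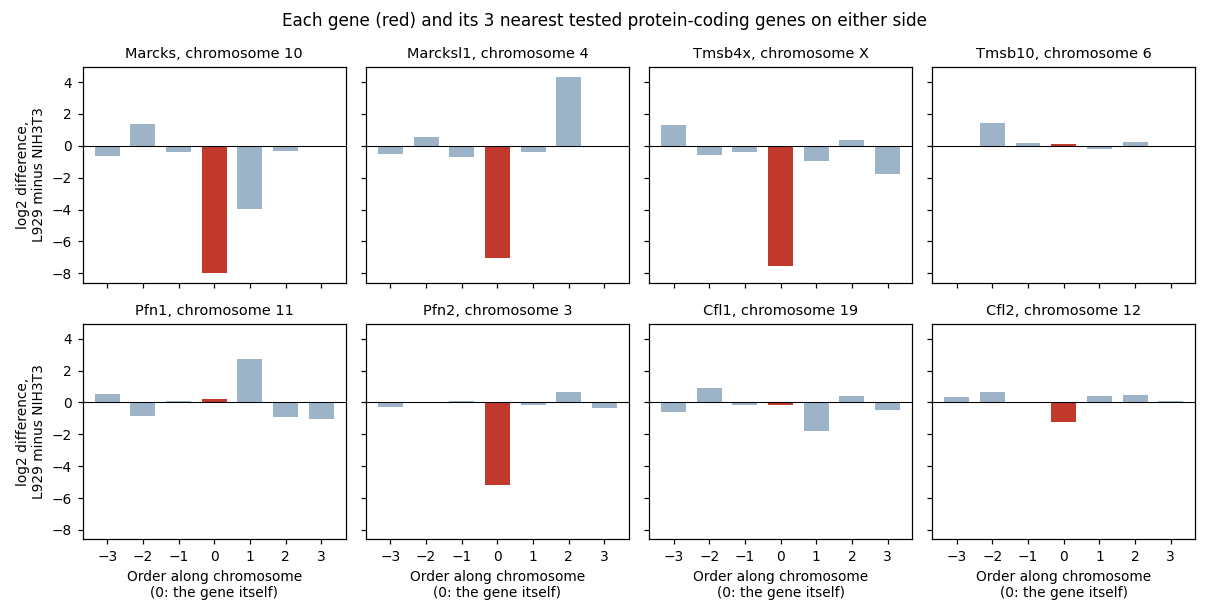
Log2 difference, L929 minus NIH3T3, of each of the 8 genes (red, from its chosen probe set) and of the 3 nearest tested protein-coding genes on either side, by order along the chromosome. The bars of Marcks, Marcksl1, Tmsb4x, Pfn2 and Cfl2 reach below all of their neighbours.

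Likeness of pattern was measured as the Euclidean distance over the 4 arrays between log2 signals centred on each gene's own mean, over 11928 named genes, so that it reflects mostly the size of the difference between 2 lines. Closest to Marcks were Tnc (0.26), Cd34 (0.45), Fstl1 (0.74), and closest to Tmsb4x Ramp3 (0.34), Crabp1 (0.39), Cd34 (0.47), with the distance in brackets. All of these genes, and Marcks itself, were dim on both L929 arrays, so their ranks rest partly on signals under the dim level. Closest to Marcksl1 were Cavin2 (0.12), Ramp3 (0.26), Basp1 (0.32), and closest to Pfn2 Mmp2 (0.10), Rras2 (0.15), Pbx3 (0.16). Of these 10 different genes, since Cd34 and Ramp3 each appear under both of 2 members, Basp1 alone also stands on a pathway list. Marcksl1 on its chosen probe set, Ramp3 and Pbx3 were also dim on both L929 arrays. Cavin2, Basp1 and Rras2 were dim on 1 of the 2, so these ranks carry the same limit. Tmsb10 was closest to Rpl27 (0.02), Rpl4 (0.03), Rps14 (0.04), genes of ribosomal proteins that are likewise bright on all arrays. After scaling all of them were lower on NIH3T3 replicate 2 than on replicate 1. As deposited, Tmsb10 probe set 1437185_s_at read 7874 and 7807 on these arrays. Pfn1 was closest to Cptp (0.02), Topbp1 (0.03), Egfr (0.05), Cfl1 to Psmd7 (0.02), Hmga2-ps1 (0.02), Ccdc141 (0.02) and Cfl2 to Mcts2 (0.05), Slc12a2 (0.05), B4galnt2 (0.06). Of the genes near Cfl2, B4galnt2 was dim on both L929 arrays.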

How the data were processed

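Signals were deposited by the authors as 1 intensity per probe set and array, and these are MAS5 signals per the submitters' processing notes; their version and scaling target are not stated. The deposited intensities are linear, and their trimmed means differ between arrays. All 4 columns were matched to samples by accession and grouped by title, and 0 columns were left unused.

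Each array was scaled to a common mean trimmed by 2% at each end, and log2 was taken after adding 8.01, the 25th percentile of scaled signals, which understates differences of dim genes. A probe set entered the fit where both arrays of either line exceeded 17.3, the 40th percentile, which is no measured detection limit. The lines were compared with lmFit and eBayes of limma 3.58.1 (R 4.3.3) with a mean-variance trend, with Benjamini-Hochberg adjustment, an adjusted p under 0.05 and a fold above 1.5, the thresholds in the submitters' design text. For gene lists, 1 probe set per gene, the brightest tested, was used, with adjustment over 12676 genes. Names came from the platform annotation (34945 probe sets with 1 symbol, 932 with several, 9160 unnamed). Promoters came from RefSeq (GRCm38.p6). Alternatives were no, quantile or median scaling, other offsets and filters, no trend, a replicate block, each array left out, and other probe sets per gene.

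Named genes were all members, up to 3 called genes per direction of each list, the actins, close relatives and SRF factors. The 3 genes of most similar pattern per member were named as well. Vasp, Diaph1, Diaph3, Fmnl2, Gap43, Prkca, Wasf2, Ssh1, Ssh2 and the chromosomal neighbours were named after their values were seen, as was the motif search chosen. The members and lists were chosen with earlier results of these data known.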

Additional observations from a re-analysis of the deposited data

How the results depend on the processing

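All 25 tested member probe sets were compared over 14 alternatives, and 0 called ones changed direction; 16 of the 19 called lower were called in every alternative, and the other 3 are the weak probe sets of Marcks, Tmsb10 and Cfl2 named above. When 1 array was left out, the log2 differences of these 19 member probe sets ran from -8.39 to -0.74. Without scaling, 1484 in place of 4091 probe sets and 8 in place of 18 pathway genes were called higher, and the median log2 difference of all tested probe sets was -0.28 in place of -0.01. The Tmsb4x over Tmsb10 difference was -7.51 with quantile normalization, -8.15 with an offset of 1, -6.74 with an offset of 32 and -7.21 with the mean of all tested probe sets, against -7.69. Pfn1 over Pfn2 was 5.24 with quantile normalization and 5.10 with an offset of 32, against 5.38. Marcks over Marcksl1 was -2.03 with an offset of 1, -0.47 with an offset of 32 and -1.34 to -0.54 when 1 array was left out, where both genes are dim in L929. Leaving out _s_at and _x_at probe sets gave no value for the thymosin and MARCKS pairs, as Tmsb10 and Marcksl1 then have no tested probe set. The sources do not say that equal replicate numbers mark a shared batch, and deviations of same-numbered arrays correlated with r = 0.01; with the replicate block, 4153 probe sets were called higher, 4681 lower and 19 member probe sets lower. The causes of these shifts were not tested. The number of arrays limits the precision, and no level can be read for a gene that is dim in L929.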

Other observations

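Probe sets of 1 gene did not always point the same way in the surrounding pathway. Mrtfb, a coactivator of serum response factor, had 3 tested probe sets with log2 differences from -1.07 to 1.15, so the value of its brightest probe set stands between opposite ones. Wasl, an activator of actin branching, ran from -1.08 to 0.39 over 4 probe sets, and the phosphatase Ssh1 from -0.85 to 0.12. Diaph1, a formin, ran from -0.69 to 0.22 over 3. The cause was not tested. Among the 8 members 0 probe sets were called higher, so calls of opposite direction within a gene were not possible. By the log2 difference, Tmsb10 ran from -0.84 to 0.14 over 4 tested probe sets.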
